A study of Homo sapiens with 8 samples.

Results

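BCL2 family genes encode the proteins that hold a cell back from mitochondrial death or push it there. The 10 members described here were chosen by name: the anti-apoptotic genes BCL2, BCL2L1, BCL2L2, MCL1 and BCL2A1, the BH3-only genes BCL2L11, BBC3, PMAIP1 and BID, and the effector BAX. All 10 were found among the 25066 genes of the deposited table. They were measured by RNA sequencing in TMD8, an established human lymphoma line of the ABC type of DLBCL (diffuse large B cell lymphoma). All cells carried Cas9 from a lentivirus and stably expressed either a control guide RNA (sgCTRL, labelled KLHL14 +/+) or a guide against KLHL14 (sgKLHL14, labelled KLHL14 -/-). For 24 h each kind of cell received either DMSO, the solvent, or ibrutinib at 2 nM. Ibrutinib binds covalently to the kinase BTK and blocks it. The 4 groups, sgCTRL in DMSO, sgCTRL in ibrutinib, sgKLHL14 in DMSO and sgKLHL14 in ibrutinib, held 2 libraries each. The labels do not say whether the lines were clones or pools, nor whether the 2 libraries in each group were grown apart. The p-values therefore reflect the spread between these libraries alone, which may be technical.

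Anti-apoptotic proteins of the family hold BAX and its relatives inactive at the outer mitochondrial membrane, and BH3-only proteins bind to the anti-apoptotic ones or activate BAX directly. Once active, BAX opens the membrane, cytochrome c leaves and caspases start. In B cells the receptor pathway through BTK and NF-kB is known to feed transcription of BCL2A1 and BCL2L1, and BCL2L11 (BIM) is known as a main killer of B cells that lose survival signals. A read count per gene shows mRNA and says nothing of protein, splice form or BH3-only activity.

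Libraries held 12333876 to 23467110 reads. Within a group, the pair of libraries had a correlation across genes of 0.994 to 0.996. The pair differed by more than sampling noise (chi-square per degree of freedom of 2.19 to 8.20). Each library was counted as a sample, although such a spread cannot show whether the pair was grown apart. KLHL14 mRNA did not check the guide: its normalized log2 read count was 12.06 to 12.07 in sgCTRL and 12.19 to 12.33 in sgKLHL14 libraries given DMSO. The means in ibrutinib were 12.30 for sgCTRL and 13.16 for sgKLHL14. A small insertion or deletion made by Cas9 is not seen in a count per gene. Comparisons of guides are therefore between libraries labelled sgCTRL and sgKLHL14. All 7 of the B cell markers searched for were expressed, while 3 of 5 T cell genes, CD3D, CD3E and CD7, had 0 reads in every library. The T cell gene CD8A passed the level filter with 19 to 36 reads, and the 5 genes summed to 37.8 to 40.1 normalized reads in DMSO and 50.7 to 70.0 in ibrutinib. None of 4 myeloid genes passed the filter (summed to 15.3 to 32.5). The 4 genes chosen as markers of epithelium or fibroblasts summed to 118 to 172 normalized reads in DMSO and 208 to 286 in ibrutinib. The B cell markers summed to 143220 to 164540. Of these 4 genes, EPCAM and KRT18 had 0 or 1 reads in each library, COL1A1 had 39 to 114 and COL1A2 had 20 to 67. The part of these genes in the results was not tested.

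Per length of exon, 4 members led in every group. On a scale of reads per kilobase of GENCODE exons, adjusted for library size (RPKM), sgCTRL cells in DMSO held BCL2A1 at 130 to 133, MCL1 at 105 to 113, BCL2L11 at 91.7 to 94.8 and BAX at 77.3 to 78.4 in their 2 libraries. BID followed at 45.9 to 47.7 and PMAIP1 at 33.9 to 34.2. BCL2 stood at 17.7 to 18.7 and BCL2L1 at 16.3 to 17.1, and BBC3 (5.10 to 5.31) and BCL2L2 (3.06 to 3.45) were lowest. In ibrutinib the order at the top changed, with MCL1 at 138 to 140 and BCL2L11 at 132 to 136, ahead of BAX at 94.8 to 101 and BCL2A1 at 91.3 to 94.8. BAX and BCL2A1 overlapped there, as did BCL2 (19.2 to 19.4) and PMAIP1 (17.3 to 20.2). With sgKLHL14, MCL1 (96.9 to 105) and BAX (86.7 to 100.1) overlapped in DMSO. The order among the top 4 depends on which exons were counted, which is not given in the sources used here. With the length of the single transcript named in the table, 540 bases in GENCODE against 1412 for all its exons, BAX ranked first in each group. By that length BCL2L11 (158 to 163) lay above MCL1 (143 to 146) in sgCTRL cells in ibrutinib, and the 2 genes overlapped in DMSO.

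Sequence just before the transcription start is shown for 4 members that held a match to a factor's letters, because several such factors changed in the same libraries (given further on). RefSeq windows on GRCh38.p14 were found for 8 of the 10 members, in 13 windows, and the 250 bases before each start were searched on both strands. Searched were a pair of NF-kB forms, the cyclic AMP element (TGACGTCA) and its shorter core (TGACGT), the C/EBP-ATF composite (TGATGNAA), forkhead (GTAAACA), STAT (TTCNNNGAA), E-box (CACGTG) and E2F (TTTCCCGC). The TGACGT core lies within TGACGTCA. Capitals mark a match, read 5′ to 3′ on the strand of the gene, and stretches annotated as exon are left out, except in BCL2A1, whose window lies in an exon of a longer transcript and is cut to 30 bases.
PMAIP1 (chr18:59899746-59899947, plus strand): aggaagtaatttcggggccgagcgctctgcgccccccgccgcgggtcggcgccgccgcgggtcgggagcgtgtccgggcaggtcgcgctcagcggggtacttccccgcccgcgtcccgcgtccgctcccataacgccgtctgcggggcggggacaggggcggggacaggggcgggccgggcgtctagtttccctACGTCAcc
BCL2L11 (chr2:111120664-111120913, plus strand): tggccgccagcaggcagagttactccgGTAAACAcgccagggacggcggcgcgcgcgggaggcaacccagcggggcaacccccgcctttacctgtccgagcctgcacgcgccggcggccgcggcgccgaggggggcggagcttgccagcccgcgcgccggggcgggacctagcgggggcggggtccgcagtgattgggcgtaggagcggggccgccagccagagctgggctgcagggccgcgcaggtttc
BCL2A1 (chr15:79971241-79971270, minus strand): atattataaagTGATGCAAacagaaattcc
BAX (chr19:48954625-48954814, plus strand): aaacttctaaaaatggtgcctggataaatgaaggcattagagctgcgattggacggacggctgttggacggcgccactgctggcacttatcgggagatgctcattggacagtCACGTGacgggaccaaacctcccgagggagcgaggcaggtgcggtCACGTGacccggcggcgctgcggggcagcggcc
PMAIP1 held the TGACGT core, read on the other strand, 56 bases before its start, and 7.10% of 35116 windows of this length held it. BCL2L11 held a forkhead match 223 bases before its start (2.98% of windows). BCL2A1 held a C/EBP-ATF match at 63 bases (3.14%) and a STAT match at 168 bases (6.57%). BAX held 4 E-boxes, at 138, 93, 45 and 14 bases, of which 2 are shown (6.34% of windows hold at least 1), and BBC3 and BID windows also held E-boxes. Neither NF-kB form, the full TGACGTCA nor the E2F letters were found in the windows of members, which says only that these letters are not in them.

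The first comparison is of ibrutinib with DMSO in sgCTRL cells. Ibrutinib moved 9 of the 10 members, in both directions within each class that has more than 1 gene. Of the anti-apoptotic genes, MCL1 rose and BCL2A1, BCL2L1 and BCL2L2 fell. Of the BH3-only genes, BCL2L11 and BBC3 rose and PMAIP1 and BID fell, and the effector BAX rose. A change was called at a limma adjusted p under 0.05 over 12531 genes, of which 35.1% were called, 18.1% higher and 17.0% lower, so 4 members higher and 5 lower stand against a broad response. The median log2 change was -0.44 over the 5 anti-apoptotic genes, -0.040 over the 4 BH3-only genes and 0.33 for BAX, beside 0.018 over all genes tested.

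**Figure D1:**
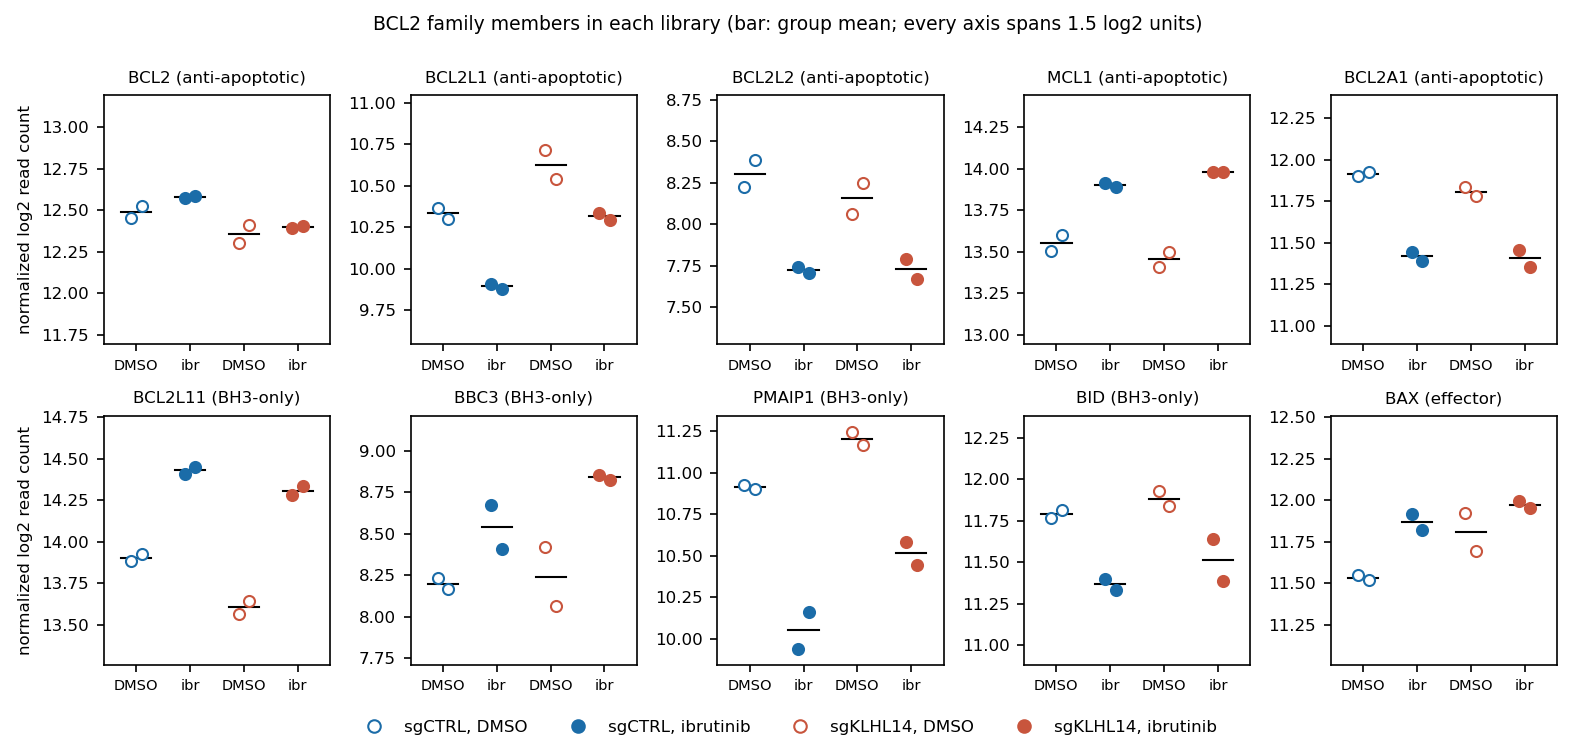
Normalized log2 read count of each member in the 8 libraries, sgCTRL in blue and sgKLHL14 in red, open for DMSO and filled for ibrutinib, with group means as bars. MCL1 and BCL2L11 lie higher in all 4 ibrutinib libraries than in all 4 DMSO libraries, and BCL2A1, BCL2L2, PMAIP1 and BID lie lower. The share of all genes that do so was not counted. Within a guide, DMSO and ibrutinib libraries did not overlap in 69.8% of all genes with sgCTRL and 67.8% with sgKLHL14.

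Among survival genes, BCL2A1 (A1/BFL-1, a short-lived protector and known NF-kB target) had log2 read counts of 11.91 and 11.93 in DMSO and 11.45 and 11.39 in ibrutinib. This was a log2 change of -0.50 (SE 0.062, limma adjusted p = 4.07e-06), or -29.2%. BCL2L1, which encodes BCL-XL, stood at 10.37 and 10.30 in DMSO and at 9.91 and 9.88 in ibrutinib, a log2 change of -0.44 (SE 0.077, adjusted p = 0.000178). BCL2L2 (BCL-w) went from 8.22 and 8.39 to 7.74 and 7.70, a change of -0.58 (SE 0.13, adjusted p = 0.00168) that rests on 103 to 288 reads a library. In none of these 3 genes did the libraries of DMSO and ibrutinib overlap. MCL1, a protector with rapid protein turnover, moved the other way, from 13.51 and 13.60 to 13.92 and 13.89, a gain of 0.35 (SE 0.059, adjusted p = 0.000120). BCL2, the target of venetoclax, was at 12.45 and 12.53 in DMSO and 12.57 and 12.58 in ibrutinib. Its difference of 0.088 (95% confidence interval -0.036 to 0.21, adjusted p = 0.266) did not pass, although the libraries did not overlap, which was so for 69.8% of all genes in this comparison.

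Among the death genes, PMAIP1 had the largest log2 change of the 10 members. PMAIP1 (NOXA, a BH3-only protein known to bind MCL1 and A1) had log2 read counts of 10.92 and 10.90 in DMSO and 9.94 and 10.16 in ibrutinib. It fell by 0.86 on the log2 scale (SE 0.079, limma adjusted p = 6.86e-08), a change of -45.0%. BCL2L11, which binds all anti-apoptotic members, went the opposite way, from 13.88 and 13.93 to 14.41 and 14.45, a gain of 0.53 or 1.44-fold (SE 0.058, adjusted p = 7.57e-07). BID, which caspase 8 cleaves to link death receptors to mitochondria, fell from 11.77 and 11.82 to 11.40 and 11.33, a change of -0.42 (SE 0.074, adjusted p = 0.000183). BBC3 (PUMA, which binds all anti-apoptotic members) was at 8.23 and 8.17 in DMSO and 8.68 and 8.41 in ibrutinib. Its rise of 0.34 (SE 0.13, adjusted p = 0.0445) had the highest adjusted p of the 9 members called: without sgCTRL ibrutinib replicate 1 it was 0.21 (adjusted p = 0.361), and leaving out either sgCTRL DMSO library gave adjusted p = 0.102 and 0.163. The BBC3 call also ended without the filter on low values, without the variance trend and with quantile or median scaling (adjusted p = 0.125, 0.114, 0.102 and 0.0501). BAX, which forms the pore, rose from 11.55 and 11.52 to 11.91 and 11.82 (0.33, SE 0.071, adjusted p = 0.00110).

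Cells labelled sgKLHL14 answered ibrutinib with changes of the same sign in all 10 members. There 8 members were called, 3 higher and 5 lower, beside 39.3% of all genes (19.9% higher and 19.4% lower). The groups did not overlap in 9 members, all but BCL2, as in 67.8% of all genes. The class medians of the log2 change were -0.31 over anti-apoptotic genes, 0.12 over BH3-only genes and 0.16 for BAX, and 0.010 over all genes. BCL2L11 had the largest rise of the members, from 13.56 and 13.64 in DMSO to 14.28 and 14.34 in ibrutinib (0.70 or 1.63-fold, SE 0.058, limma adjusted p = 1.46e-08). MCL1 went from 13.41 and 13.50 to 13.98 and 13.98 (0.52, SE 0.059, adjusted p = 8.85e-07). BBC3 went from 8.42 and 8.06 to 8.86 and 8.82 (0.60, SE 0.13, adjusted p = 0.00105). The DMSO libraries of BBC3 lay farther apart than those of any other member in any group, and both lay under the ibrutinib libraries.

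PMAIP1 again had the largest fall of the members, from 11.24 and 11.17 to 10.58 and 10.45 (-0.69, SE 0.079, limma adjusted p = 1.21e-06). BCL2A1 fell from 11.84 and 11.78 to 11.46 and 11.36 (-0.40, SE 0.062, adjusted p = 4.18e-05), and BID from 11.93 and 11.84 to 11.64 and 11.39 (-0.37, SE 0.074, adjusted p = 0.000588). Without sgKLHL14 ibrutinib replicate 2 the change in BID was -0.24 (adjusted p = 0.0251). BCL2L2 fell from 8.06 and 8.25 to 7.79 and 7.67 (-0.43, SE 0.13, adjusted p = 0.0132), a call that ended without sgKLHL14 DMSO replicate 2 (adjusted p = 0.123) or sgKLHL14 ibrutinib replicate 2 (adjusted p = 0.0871). BCL2L1 fell from 10.71 and 10.54 to 10.34 and 10.30 (-0.31, SE 0.077, adjusted p = 0.00317), and did not pass without sgKLHL14 DMSO replicate 1 (adjusted p = 0.0569). The 2 members that did not pass were BCL2 (0.041, 95% confidence interval -0.084 to 0.16) and BAX. BAX, at 11.92 and 11.70 in DMSO and 11.99 and 11.95 in ibrutinib, differed by 0.16 (SE 0.071, adjusted p = 0.0738), by 0.28 (adjusted p = 0.00505) without sgKLHL14 DMSO replicate 1 and by 0.050 (adjusted p = 0.627) without replicate 2.

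**Figure D2:**
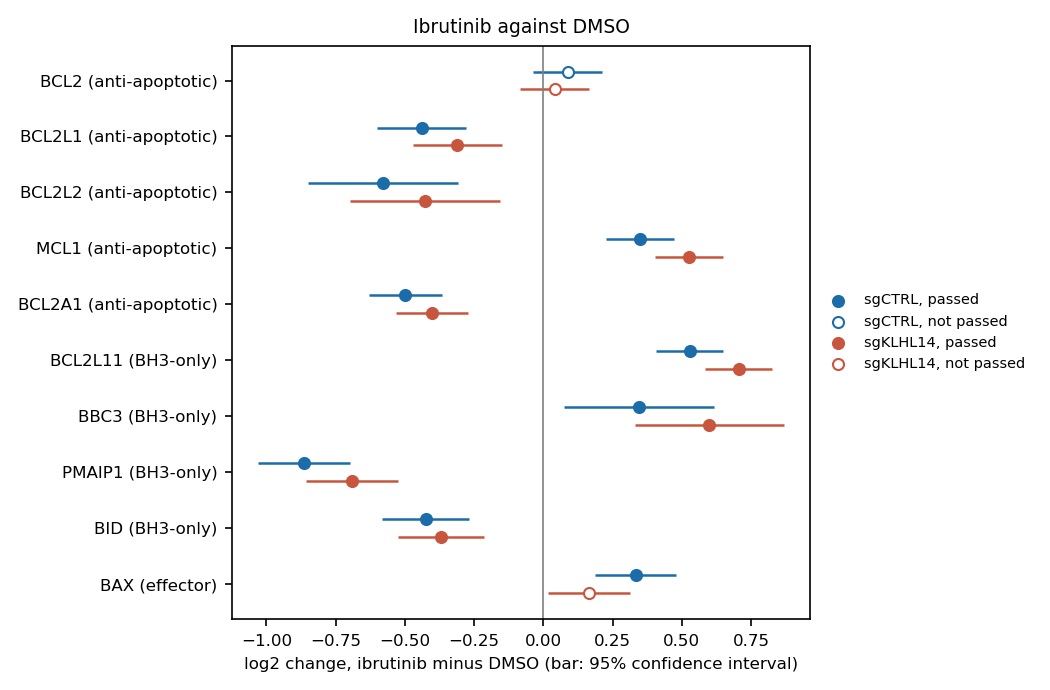
Log2 change of each member from DMSO to ibrutinib, with 95% confidence intervals, in sgCTRL (blue) and sgKLHL14 (red) libraries, filled where the adjusted p is under 0.05. In both kinds of cell MCL1, BCL2L11 and BBC3 lie to the right of 0 and BCL2L1, BCL2L2, BCL2A1, PMAIP1 and BID to the left, while BAX passed in sgCTRL alone.

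The ibrutinib comparisons of the guides share no library. Of all genes tested, 83.1% had the same sign in both, and 27.8% were called in both, against 10 of 10 and 8 of 10 members. All 8 had the same direction in both, as had 3480 of the 3481 genes called in both.

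Whether the guide changed the response was tested directly, as the difference between the ibrutinib responses (sgKLHL14 minus sgCTRL). In limma 0 members passed, beside 0.0239% of all genes (3 of 12531, with 0.0160% higher and 0.00798% lower), and voom on the recovered reads also called 0 members. At an unadjusted p under 0.05 were 2 members, MCL1 (0.18, 95% confidence interval 0.0020 to 0.35) and BCL2L11 (0.18, 0.0060 to 0.35), as were 5.69% of all genes. BAX had a difference of -0.17 (-0.38 to 0.040) and PMAIP1 of 0.17 (-0.063 to 0.41). The widest intervals were those of the low genes BBC3 (0.25, -0.13 to 0.64) and BCL2L2 (0.15, -0.23 to 0.54), so differences of this size in response were not detectable with 2 libraries a group.

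Guide differences within a treatment were few. In DMSO 1 member passed, beside 1.64% of all genes (0.782% higher and 0.862% lower). This was BCL2L11, which had a log2 difference of -0.30 with sgKLHL14 (13.56 and 13.64 against 13.88 and 13.93, SE 0.058, limma adjusted p = 0.00911), a change of -18.8%. The groups did not overlap, but the call ended without sgCTRL DMSO replicate 1 (adjusted p = 0.0507), sgCTRL DMSO replicate 2 (0.0641) or sgKLHL14 DMSO replicate 1 (0.0879), without the filter on low values (0.108) and without the variance trend (0.180). Just outside the threshold were BAX (0.28, adjusted p = 0.0537), BCL2L1 (0.29, adjusted p = 0.0602) and PMAIP1 (0.29, adjusted p = 0.0700), all with higher values in sgKLHL14 and no overlap, which 41.7% of all genes also showed. Without sgKLHL14 DMSO replicate 2, BAX (0.39, adjusted p = 0.00418) and BCL2L1 (0.38, adjusted p = 0.0163) passed, and without replicate 1 the values were 0.16 (adjusted p = 0.622) and 0.21 (adjusted p = 0.586).

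In ibrutinib 2 members passed, both higher in sgKLHL14, beside 2.38% of all genes (1.59% higher and 0.790% lower). In 7 members the guides did not overlap, as in 43.9% of all genes. PMAIP1 was at 10.58 and 10.45 against 9.94 and 10.16, a difference of 0.46 or 1.38-fold (SE 0.079, limma adjusted p = 0.00161). BCL2L1 was at 10.34 and 10.30 against 9.91 and 9.88, a difference of 0.42 or 1.34-fold (SE 0.077, adjusted p = 0.00279). Both are genes that ibrutinib lowered, 1 from the death class and 1 from the survival class. Both also had higher values with sgKLHL14 in DMSO (0.29 for each, not passed). The difference between responses passed for neither (limma adjusted p = 0.936 for PMAIP1 and 0.953 for BCL2L1). The PMAIP1 call ended without sgCTRL ibrutinib replicate 1 (0.35, adjusted p = 0.0835) and that of BCL2L1 without sgCTRL ibrutinib replicate 2 (adjusted p = 0.0614). Neither passed without the variance trend (adjusted p = 0.114 and 0.0895), and PMAIP1 did not pass without the filter on low values (adjusted p = 0.0506). BCL2L11 (-0.12, 95% confidence interval -0.24 to -0.0021, adjusted p = 0.379) and BCL2 (-0.18, -0.30 to -0.055, adjusted p = 0.142) had lower values with sgKLHL14 and did not pass. The intervals of BCL2A1 (-0.14 to 0.12) and MCL1 (-0.047 to 0.20) spanned 0.

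**Figure D3:**
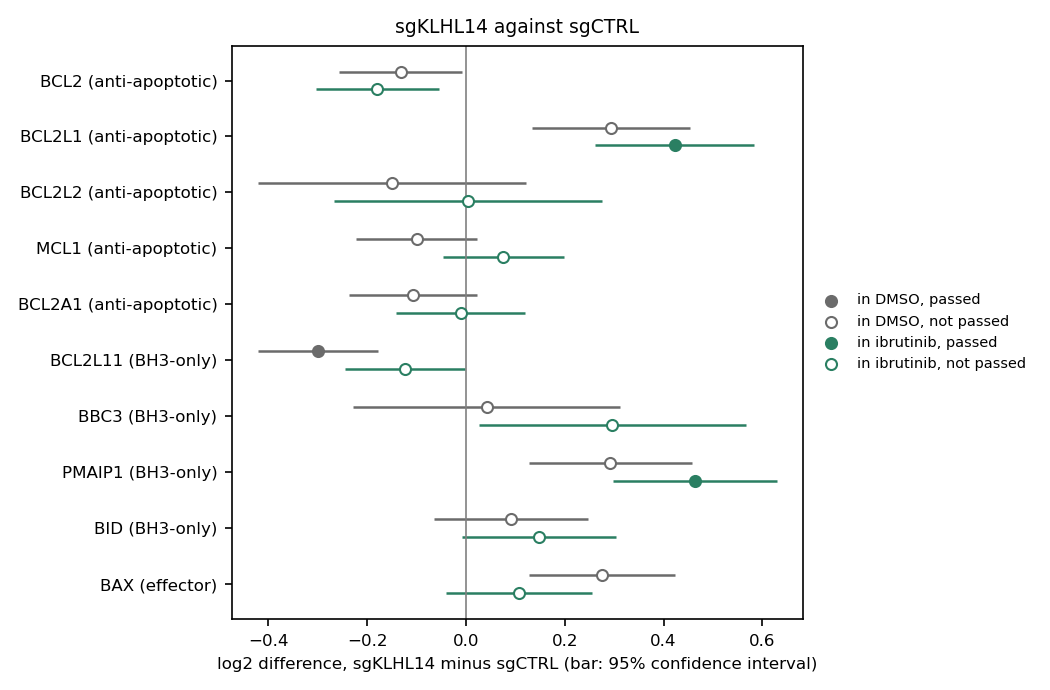
Log2 difference of each member between sgKLHL14 and sgCTRL libraries, with 95% confidence intervals, in DMSO (grey) and ibrutinib (green), filled where the adjusted p is under 0.05. BCL2L11 passed in DMSO at -0.30, and BCL2L1 at 0.42 and PMAIP1 at 0.46 passed in ibrutinib.

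Comparisons by guide and by drug share libraries: the sgKLHL14 DMSO libraries, where BCL2L11 was lowest (13.56 and 13.64), are also the base of its larger rise in ibrutinib. Reads could be shared with other genes for some members, since the kit marks strand but it is not given whether counting used it. In GENCODE, the antisense RNA ABALON covers 42.8% of the exon bases of BCL2L1, MIR4435-2HG covers 11.9% of BCL2L11 on the opposite strand, and the read-through gene BCL2L2-PABPN1 shares 16.3% of BCL2L2.

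Of the 14 other BCL2 family genes listed, 10 passed the level filter. In sgCTRL cells ibrutinib moved 0 of them past the threshold in limma (1 at an unadjusted p under 0.05) and 0 in voom, beside 35.1% of all genes called. In sgKLHL14 cells 5 rose with 0 falling: BIK, a BH3-only gene (0.90), the mitophagy receptors BNIP3 (0.29) and BNIP3L (0.24), BECN1, an autophagy protein with a BH3 motif (0.24), and BCL2L13 (0.21), with limma adjusted p from 0.00965 to 0.0201, beside 19.9% of all genes called higher and 19.4% lower. BIK rested on 16 to 41 reads a library, and each of the 5 lost the call without at least 1 sgKLHL14 library (adjusted p up to 0.119). The difference between responses passed for none of them (adjusted p from 0.858 to 0.958). BCL2L13 was chosen for naming after its values were seen. In ibrutinib, BNIP3 was higher with sgKLHL14 (0.34, adjusted p = 0.0382), a call lost in 7 of 18 alternatives, among them leaving out any 1 of the 4 ibrutinib libraries (adjusted p up to 0.400). The other effector, BAK1, had 804 to 1734 reads and was called in no comparison.

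HRK, a BH3-only gene known from neurons, lay under the level filter, with few or no reads in DMSO and more in ibrutinib. In DMSO it had 0 and 1 reads with sgCTRL and 2 and 6 with sgKLHL14, and with ibrutinib it had 27 and 22 reads in the sgCTRL libraries and 27 and 15 in those of sgKLHL14. All 4 ibrutinib libraries lay above all 4 DMSO libraries. Relative to library size, the summed counts were 60.2-fold higher in ibrutinib with sgCTRL (95% counting interval 10.3 to 2424, from 1 and 49 reads) and 8.22-fold with sgKLHL14 (3.81 to 20.3). These intervals cover counting error only. In limma without the level filter, over 19243 genes, both rises passed (adjusted p = 0.000547 and 0.00584) and the difference between them did not (adjusted p = 0.863). HRK was singled out after its values were seen.

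The machinery of mitochondrial death was listed as 19 genes. The shares of all genes beside it were 18.1% higher and 17.0% lower in sgCTRL cells and 19.9% and 19.4% in sgKLHL14 cells. Of these 19 genes of cytochrome c release and caspases, 1 rose and 4 fell with ibrutinib in sgCTRL cells, and 2 rose and 7 fell in sgKLHL14 cells, with median log2 changes of -0.023 and -0.16. VDAC1, an outer membrane channel, fell in both (-0.46 and -0.43, limma adjusted p = 3.02e-06 and 6.33e-06). XIAP, a caspase inhibitor, rose by 0.27 and 0.28. CASP8, the caspase that cleaves BID, rose in sgKLHL14 (0.36, adjusted p = 0.000367), and VDAC2, a channel that binds BAK1, fell there (-0.27). In sgCTRL neither passed (CASP8 0.075, VDAC2 -0.16, adjusted p = 0.423 and 0.0636). The difference between responses passed for neither (adjusted p = 0.718 and 0.958). DFFA, the inhibitor of the caspase-activated nuclease, fell in both sgCTRL (-0.23) and sgKLHL14 (-0.20, adjusted p = 0.0411). Its sgKLHL14 call was lost in 11 of 18 alternatives. XIAP and DFFA lost the sgCTRL call in 4 and 5 of 18 alternatives (adjusted p up to 0.239), and XIAP the sgKLHL14 call in 3 (adjusted p up to 0.120). By guide, 0 of the 19 were called in limma or voom in either treatment (in limma 3 in DMSO and 1 in ibrutinib at an unadjusted p under 0.05).

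Of 11 tested genes that act on turnover or tethering of family proteins, 0 rose and 2 fell in sgCTRL cells and 0 rose and 3 fell in sgKLHL14 cells with ibrutinib, beside 17.0% and 19.4% of all genes called lower. TMBIM6 (BAX inhibitor-1, an endoplasmic reticulum membrane protein) fell in both, with log2 changes of -0.35 and -0.26 (limma adjusted p = 0.000172 and 0.00245). DYNLL2, the dynein light chain that tethers BMF, changed by -0.20 and -0.23. HUWE1, a ubiquitin ligase for MCL1, fell in sgKLHL14 cells (-0.36, adjusted p = 0.00887). DYNLL2 lost the calls in 6 and 3 of 18 alternatives and HUWE1 in 5 (adjusted p up to 0.310).

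Of 21 transcription regulators known to act on these genes, 5 rose and 10 fell with ibrutinib in sgCTRL cells and 4 rose and 10 fell in sgKLHL14 cells, with median log2 changes of -0.15 and -0.17. Over all genes 18.1% were called higher and 17.0% lower in sgCTRL cells, and 19.9% and 19.4% in sgKLHL14 cells. ATF4, which is known to induce PMAIP1, went from 13.49 and 13.45 in DMSO to 12.61 and 12.62 in ibrutinib with sgCTRL (-0.86, limma adjusted p = 1.30e-09), and changed by -0.88 with sgKLHL14. TRIB3 and ATF3, known targets of ATF4, fell too, with log2 changes of -1.08 and -1.07 for TRIB3 and of -1.28 and -0.97 for ATF3. DDIT3 (CHOP), which is known to induce BCL2L11 and BBC3 under stress, changed by -0.80 and -0.77, while both of those genes rose. STAT5A, a known activator of BCL2L1 and MCL1 in blood cells, fell with changes of -1.74 and -1.66 on 32 to 214 reads.

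Among the regulators that rose in sgCTRL cells were FOXO3 (0.74), TP63 (0.58), FOXO1 (0.54) and E2F1 (0.21). FOXO3 and FOXO1 are known activators of BCL2L11. FOXO3 in sgCTRL cells went from 8.00 and 7.76 without the drug to 8.62 and 8.63 with it (limma adjusted p = 7.61e-05), and rose by 0.74 with sgKLHL14 too. TP63 (0.80) and FOXO1 (0.52) also rose there. E2F1 lost the call in 6 of 18 alternatives (adjusted p up to 0.205). NFKB2, a subunit of NF-kB, fell with changes of -0.48 and -0.42 in the 2 kinds of cell. Of the other subunits listed, REL was called lower in sgCTRL only (-0.47) and RELB in sgKLHL14 only (-0.19). Those calls were lost in 6 and 8 of 18 alternatives. NFKB1 and RELA were called in neither kind of cell. The means of RELA went from 10.77 to 10.86 with sgCTRL and from 10.77 to 10.90 with sgKLHL14. FOXO3, FOXO1, E2F1, DDIT3 and NFKB2 were chosen for naming after their values were seen. Between guides in ibrutinib, MYC (0.27, adjusted p = 0.0341) and TRIB3 (0.30, adjusted p = 0.0449) were higher with sgKLHL14, calls that ended without any 1 of the 4 ibrutinib libraries (adjusted p up to 0.520). MYC, which binds the E-box, fell with ibrutinib in sgCTRL cells (-0.40, adjusted p = 0.000110) and did not pass in sgKLHL14 cells (-0.17, adjusted p = 0.0543). Whether a factor's mRNA or a promoter match bears on a member's change was not tested.

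**Figure D4:**
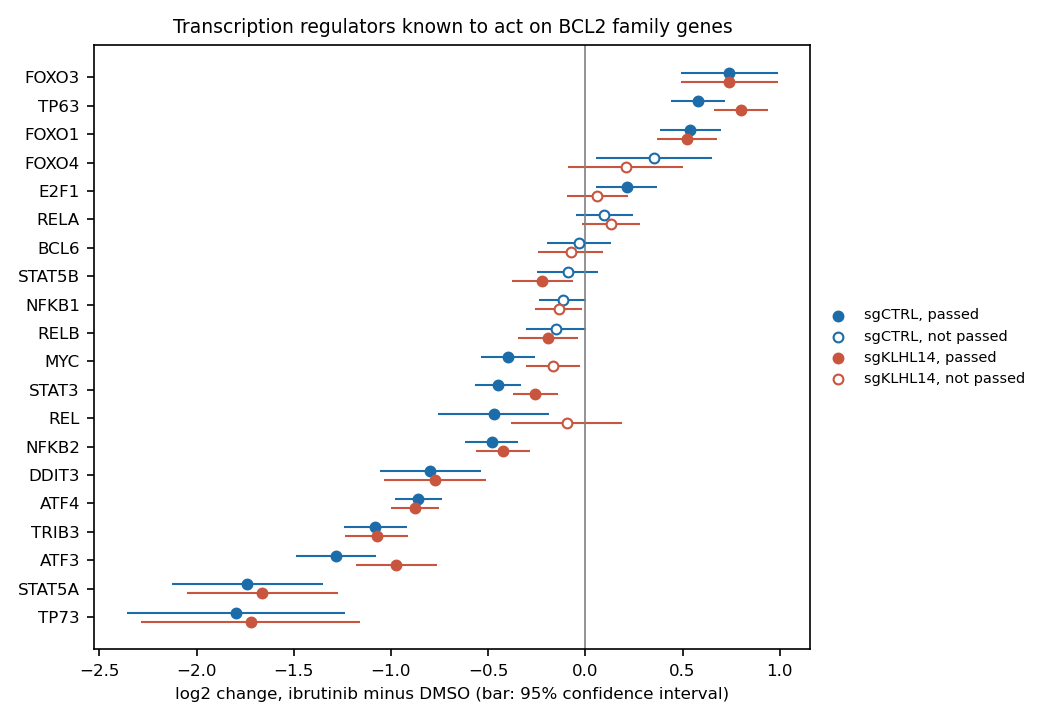
Log2 change with ibrutinib, with 95% confidence intervals, for 20 of the 21 regulators in sgCTRL (blue) and sgKLHL14 (red) libraries, filled where the adjusted p is under 0.05. ATF4, TRIB3, ATF3, STAT5A and TP73 lie below -0.8 in both, and FOXO3, FOXO1 and TP63 lie above 0.5.

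BCL2L11 gained on every anti-apoptotic member within the same libraries. As the log2 ratio of BCL2L11 to each survival gene, the gain with ibrutinib was 0.44 for BCL2, 0.97 for BCL2L1, 1.11 for BCL2L2, 0.18 for MCL1 and 1.03 for BCL2A1 in sgCTRL cells. In sgKLHL14 cells it was 0.66, 1.02, 1.13, 0.18 and 1.11 in that order. Against MCL1, which rose itself, the log2 ratio went from 0.38 and 0.32 in DMSO to 0.49 and 0.56 in ibrutinib with sgCTRL. With sgKLHL14 it went from 0.16 and 0.14 to 0.30 and 0.36. These ratios describe the libraries, restate the changes given above and carry no test. BCL2L11 was the BH3-only member with the largest rise in both kinds of cell. PMAIP1 and BID fell with ibrutinib in both, and no ratios were formed for them.

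Patterns across the 8 libraries were compared only with tested genes that have an official symbol. The genes with the pattern most like that of BCL2L11 were PRKCE, ANTXR2 and ADAM19 (Pearson r = 0.998, 0.996 and 0.995). For MCL1 they were SCN2A, RNF141 and CHN2 (0.998, 0.993 and 0.993), and for BAX they were GSTP1, FEM1A and TMEM222 (0.991, 0.985 and 0.983). Such values are common where libraries fall into a DMSO and an ibrutinib cluster. Of the 10025 genes so compared, 346 had r over 0.95 with BCL2L11, 350 with MCL1 and 22 with BAX.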

How the data were processed

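The 8 libraries were made with a stranded mRNA kit (TruSeq), per the labels' protocols, and the submitters' processing notes name bcl2fastq, STAR and HTSeq with the human build hg19, with no version, setting or annotation. The deposited table holds log2 values by the authors, 1 row per gene, and a row of total reads that entered no test. A check of the values showed that each is the log2 of whole reads scaled by a factor of its library: within 6e-04 on the log2 scale 100% of values came out whole, 1 read was worth 1.16 to 2.19, and the reads so recovered made up 99.998% to 100.002% of the total listed. There were 0 columns of other samples. The method behind the factors is not given in the sources used here.

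The 12531 genes with a mean log2 value of at least 4.2 over all libraries entered a limma 3.58.1 fit of 4 group means (R 4.3.3, variance prior following the mean, 4 residual and 14.9 prior degrees of freedom). None had a library at 0, so no pseudocount entered. P-values were Benjamini-Hochberg adjusted over all genes. The fit was tested on simulated data. The unit check holds the columns as "other" because of the totals row. Exon lengths and overlaps came from GENCODE 29 (GRCh38) and promoters from RefSeq (GRCh38.p14), and no coordinate was joined to the hg19 table.

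The members and gene lists were chosen with earlier results of these data known. Named were all members, up to 4 called genes with the smallest p per other list and comparison, except some list genes that are not reported here, and the 3 genes most correlated with the member of each class that had the smallest p for the difference between responses. The same replicate number occurs in each group, and deviations of same-numbered libraries correlated at -0.055 to 0.12, so they were not taken as pairs. Alternatives were other filters, no variance trend, a robust prior, quantile and median scaling, a pseudocount of 16, voom on recovered reads, a replicate block, only the groups compared, and each library left out.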

Additional observations from a re-analysis of the deposited data

Results flagged for a closer look

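The ibrutinib response of KLHL14, the gene targeted by the guide, differed between the guides by 0.658 on the log2 scale (limma adjusted p = 0.00164), with a rise of 0.24 in sgCTRL and 0.90 in sgKLHL14 libraries. It was picked out because the test of the difference between the 2 responses passed, which it did for 0 of the 10 BCL2 family members. The KLHL14 call was lost without the filter on low values and without the variance trend, where 0 genes passed this test.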

How the results depend on the processing

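Over 18 alternatives, 850 of 890 values of single members kept their direction and their side of the threshold, 21 lost the call, 10 gained it and 9 changed sign, all 9 in values that had not passed. By guide in DMSO, where 206 genes and 1 member passed, 47 genes and 0 members did so without the filter on low values, 25 and 0 without the variance trend, and 2 members with the robust prior, with voom or with only the 2 groups compared. By guide in ibrutinib (298 genes, 2 members) the counts were 155 and 1 without the filter, and 95 and 0 without the trend. The difference between responses (3 genes) gave 0 without the filter and 0 without the trend. The cause was not tested. Leaving out 1 library gave 2902 to 4631 genes for ibrutinib in sgCTRL (4403 with all), 64 to 530 genes and 0 to 3 members by guide in DMSO, and 122 to 363 genes and 1 to 2 members by guide in ibrutinib. Values that changed sign ranged from -0.014 to 0.095 for BCL2 with ibrutinib in sgKLHL14, -0.14 to 0.22 for BBC3 by guide in DMSO, -0.064 to 0.042 for BCL2A1 and -0.055 to 0.064 for BCL2L2 by guide in ibrutinib, and -0.10 to 0.0070 for BCL2 and -0.071 to 0.18 for BID in the difference between responses. BCL2L2 by guide in ibrutinib was -0.022 with quantile scaling.

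With the replicate block, whose numbers the data do not show to be pairs, 368 genes and 4 members passed by guide in DMSO, where BCL2L1 (adjusted p = 0.0241), PMAIP1 (0.0315) and BAX (0.0120) joined BCL2L11, 5 genes in the difference between responses, and BAX with ibrutinib in sgKLHL14 (adjusted p = 0.0354). The block changed no other call of a member. BBC3 and BCL2L2, at 93 to 292 reads a library, have the largest standard errors of the 10 members.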
